A study of Mus musculus with 16 samples.

Results

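The 10 genes described here mark the 2 ends of the axis between epithelial and mesenchymal cells. They are the simple-epithelial keratins *Krt7*, *Krt8*, *Krt18* and *Krt19*, the epithelial surface genes *Cdh1* and *Muc1*, the mesenchymal effectors *Vim* and *Cdh2*, and the transcriptional repressors *Zeb1* and *Snai2*. They were chosen by name, out of 53354 genes with a TPM value (transcript abundance scaled for length and library size), as textbook markers. The choice was made with earlier results of these data known. The cells were mIMCD3, a line from the inner medullary collecting duct of the kidney of an SV40 transgenic mouse. The labels record the line as wild type, and every group shares it. All groups were grown on permeable filters for 10 days and then kept for 3 or 6 more days in medium, renewed daily, with doxycycline (DOX) at 2 µg/mL or with its vehicle, DMSO. Each of the 4 groups (DMSO 3 days, DOX 3 days, DMSO 6 days and DOX 6 days) had 4 replicates. The labels do not say that replicates came from separate cultures, so p-values measure the spread between these libraries, which may be technical. The question put to these genes was whether DOX moved the cells along the epithelial to mesenchymal axis.

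Keratins 8 and 18 pair, as a type II and a type I chain, into the intermediate filaments of simple epithelia, and keratins 7 and 19 join them in ducts, the collecting duct among them. E-cadherin, the product of *Cdh1*, holds epithelial cells together at adherens junctions, and *Muc1* encodes a mucin of the apical membrane. In an epithelial to mesenchymal transition, repressors of the SNAI and ZEB families silence *Cdh1* and keratin genes, and vimentin (*Vim*) and N-cadherin (*Cdh2*) replace keratin filaments and E-cadherin.

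Estimated counts summed to between 16933343 and 23960860 per library, and replicates of a group correlated at r = 0.981 to 0.992 across genes. A floor of 3 counts lay at 0.125 to 0.177 CPM (counts scaled to library size) in these libraries, and covers counting error only. Testing was limited to the 13234 genes that reached 1 CPM in 4 or more libraries. At 3 days edgeR called 12.5% of them changed by more than 1.2-fold with DOX, 5.30% upwards and 7.22% downwards. By 6 days the share was 21.6%, with 10.0% upwards and 11.6% downwards. On log2(TPM + 1) the split between directions was more uneven, with 85 genes up against 616 down at 3 days and 376 up against 931 down at 6 days. The median tested gene had a difference of -0.15 at 3 days and -0.05 at 6 days on that scale. Fold changes below are those of edgeR on counts, where the median difference was 0.00 at both times, while levels are in TPM, which can be compared between genes.

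The cells carried strong epithelial RNA but few collecting duct markers. *Epcam*, an epithelial surface protein, averaged 168 to 229 TPM in the 4 groups. Of 6 principal cell markers, *Scnn1a* and *Gata3* passed the CPM limit and were lower with DOX at both times, while the defining water channel *Aqp2* averaged at most 0.24 TPM in any group. Markers of fibroblasts summed to between 0.079 and 1.11 TPM over 6 genes in every library, and none of the 6 passed the limit. Sums over 4 genes ran from 0.462 to 1.26 TPM for endothelial markers and from 0.701 to 1.96 TPM for urothelial markers, with no tested gene called. The 4 leukocyte markers summed to 24.8 to 32.5 TPM with DMSO and 10.7 to 16.6 TPM with DOX, nearly all of it from *Cd68* and *Csf1r*, whereas *Ptprc* and *Adgre1* stayed at or under 0.381 TPM. The part of these shifts in the results below was not tested. In RNA from whole cultures, fewer cells of a type and less RNA per cell cannot be told apart.

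In the mouse genome (GRCm38, GENCODE M21), 3 of the 4 keratins lie together in the type II keratin cluster of chromosome 15. *Krt7* occupies chr15:101411043-101430313 on the plus strand and *Krt8* chr15:101996698-102004482 on the minus strand. *Krt18*, the only type I keratin gene of that cluster, runs away from *Krt8* on the plus strand at chr15:102028180-102032027, with the 5′ ends of the gene pair 23698 bases apart. *Krt19* sits in the type I cluster at chr11:100140810-100148665 on the minus strand. *Cdh1* is at chr8:106603351-106670246, *Muc1* at chr3:89229057-89233381, *Vim* at chr2:13573927-13582826 and *Snai2* at chr16:14705852-14709385, all on the plus strand, and *Cdh2* and *Zeb1* lie on chromosome 18.

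Overlapping genes and near-copies of the keratins held few counts. *Krt7* overlaps *Gm671* on the opposite strand, which had 10 to 41 counts per library, and *Krt8* overlaps *Gm36026*, which had 4 to 21. The processed pseudogene *Krt8-ps*, 98.6% identical to *Krt8* over 941 bases, had 0 to 4 counts, and the *Krt18* copy *Gm5200* had 0 in every library. *Zeb1* is the exception, since *Gm10125* on its opposite strand had 9 to 30 counts per library, about as many as *Zeb1* itself. The library kit keeps the strand, but whether the counting used it is not given in the sources used here.

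SNAI and ZEB repressors bind the E-box CACCTG, so promoters of members were read for it on both strands (CACCTG or CAGGTG). RefSeq windows on GRCm38.p6, from 250 bases before to 50 after the transcription start, were searched. No window was found for *Krt19*, *Cdh1*, *Cdh2*, *Zeb1* or *Snai2*, so their promoters were not searched. Those of *Krt7*, *Krt18* and *Muc1* held the motif and that of *Vim* did not. Of all 32851 windows 20.2% held it and 2.88% held at least 2 matches, and no share over so few genes was set against these. The stretches below show each match in capitals with the bases around it, 5′ to 3′ on the strand of the gene, and give its first base as a position from the transcription start.
Krt7 at chr15:101412347-101412376, plus strand, match at -44 from the start: ccgccctgtcccCACCTGtgtgcgctcagc
Krt18 at chr15:102027970-102028039, plus strand, match at -214 from the start: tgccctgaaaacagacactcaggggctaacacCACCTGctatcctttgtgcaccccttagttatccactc
Muc1 at chr3:89228806-89228859, plus strand, match at -234 from the start: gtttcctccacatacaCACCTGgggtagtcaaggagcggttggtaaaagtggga
Muc1 at chr3:89228954-89229023, plus strand, match at -70 from the start: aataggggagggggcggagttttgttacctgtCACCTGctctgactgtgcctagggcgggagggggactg
*Muc1* thus held 2 matches. The *Krt7* stretch is shorter because GENCODE places it inside an exon of a longer transcript. A match is a string of letters and not a bound site.

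The genes spanned the whole range of expression, and the epithelial ones stood far above the mesenchymal ones. In the DMSO libraries of 3 days *Krt18* averaged 869 ± 14.6 TPM (SD, n = 4) and ranked 174 of all genes, followed by *Krt8* at 605 ± 22.2, *Krt19* at 513 ± 14.1 and *Krt7* at 319 ± 32.6. *Cdh1* came next at 80.8 ± 6.51 TPM. The other members were scarce, with *Muc1* at 8.63 ± 1.28 TPM, *Cdh2* at 6.47 ± 1.82, *Vim* at 1.26 ± 0.82, *Zeb1* at 0.33 ± 0.35 and *Snai2* at 0.014 ± 0.016. The first 5 places were the same in all 4 groups, and in each group these genes were separate from their neighbours in every library.

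Lower down the order in TPM changed with DOX. *Muc1* and *Cdh2* overlapped in both DMSO groups, whereas *Cdh2* was above *Muc1* in every library of both DOX groups. With DOX for 6 days *Muc1* and *Vim* overlapped, at 2.37 ± 0.95 and 1.91 ± 0.79 TPM. *Vim* and *Zeb1* overlapped only in the DMSO group of 3 days. On CPM, which does not divide by length, *Cdh2* averaged above *Muc1* with DMSO too, at 23.3 ± 4.12 against 14.5 ± 0.98 at 3 days and 21.8 ± 1.52 against 11.3 ± 1.06 at 6 days.

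**Figure D1:**
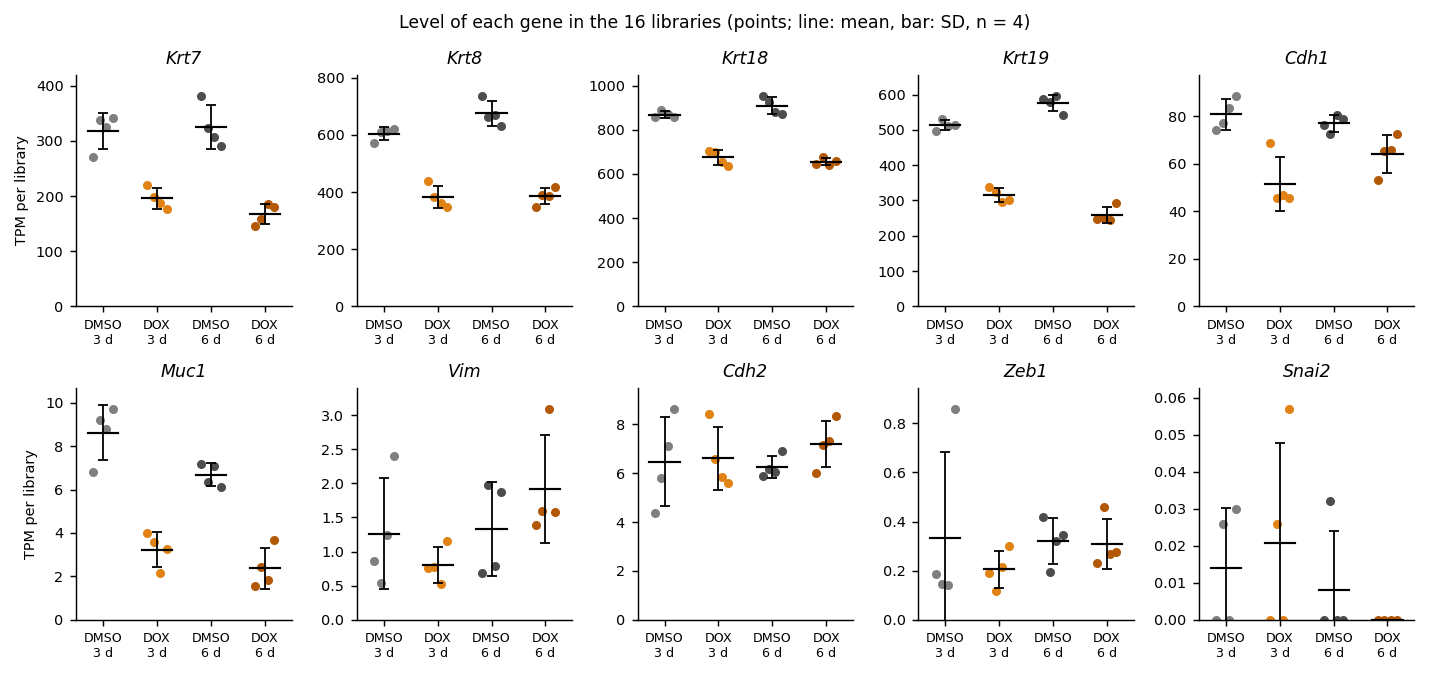
TPM of each of the 10 genes (vertical axes, each from 0) in the 16 libraries, with 1 point per library, a line at the mean of the 4 replicates and a bar of 1 SD, cut off at 0. The keratins and *Muc1* lie lower in every DOX library than in any DMSO library, while the groups of *Vim*, *Cdh2*, *Zeb1* and *Snai2* overlap.

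Between the treatments, only epithelial members were called, all of them lower with DOX. Of the 8 members that passed the CPM limit, 5 were called lower and 0 higher with DOX at 3 days (*Krt7*, *Krt8*, *Krt19*, *Cdh1* and *Muc1*), and 5 lower and 0 higher at 6 days (the 4 keratins and *Muc1*). Of all tested genes, 7.22% were called lower and 5.30% higher at 3 days, and 11.6% and 10.0% at 6 days. The median log2 fold change of the 8 members was -0.48 at 3 days and -0.58 at 6 days, against 0.00 for all tested genes at either time. *Zeb1* and *Snai2* did not pass the limit, and *Vim* reached it in 5 of the 8 DMSO libraries and in 8 of 8 with DOX. These calls are from edgeR's quasi-likelihood fit with glmTreat at 1.2-fold and Benjamini-Hochberg adjustment over 13234 genes.

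*Krt7*, a type II keratin of ducts, dropped at both times. Its level was 271, 337, 325 and 341 TPM in the DMSO libraries of 3 days and 220, 199, 188 and 176 TPM with DOX. At 6 days it was 382, 323, 307 and 290 TPM with DMSO and 146, 159, 185 and 180 TPM with DOX. No DOX library reached any DMSO library, in TPM or in CPM. In CPM, the treatments did not overlap, in either direction, for 38.6% of all tested genes at 3 days and 43.0% at 6 days. No such share was taken in TPM or in ratios of TPM, here or for the members below. By edgeR the log2 fold change was -0.48 (SE 0.065, adjusted p = 0.00475) at 3 days, when the scaled count had fallen by 28.2%, and then -0.89 (SE 0.065, adjusted p = 1.86e-08) at 6 days, when it had fallen by 46.0%.

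*Krt8*, the type II partner of keratin 18, followed the same course. It stood at 572, 611, 614 and 623 TPM with DMSO against 439, 384, 361 and 348 TPM with DOX at 3 days. By 6 days it stood at 738, 662, 671 and 632 TPM against 349, 389, 385 and 419 TPM. The DOX and DMSO libraries did not overlap at either time, in TPM or in CPM. Its log2 fold change was -0.48 at 3 days (SE 0.07, adjusted p = 0.00562) and widened to -0.75 at 6 days (SE 0.07, adjusted p = 6.65e-07).

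*Krt18*, the most abundant member, moved least among the keratins. At 3 days it measured 858, 890, 869 and 859 TPM with DMSO and 705, 701, 656 and 636 TPM with DOX. The libraries did not overlap in TPM but did in CPM, where the means were 950 ± 73.1 and 839 ± 55.3, and the log2 fold change of -0.18 (SE 0.07, adjusted p = 1) was not called. At 6 days the level was 955, 928, 882 and 871 TPM with DMSO and 647, 676, 639 and 657 TPM with DOX, without overlap, and the log2 fold change of -0.41 (SE 0.07, adjusted p = 0.0342) was called. That call was close to the limit. It was lost with DESeq2 (adjusted p = 0.133), without a CPM filter (0.150) and without replicate 1 (0.0796) or 2 (0.0995) of DMSO or replicate 2 (0.0538), 3 (0.0813) or 4 (0.0717) of DOX at 6 days, while over all alternatives the change lay between -0.47 and -0.37.

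*Krt19*, the type I keratin of ducts, fell furthest of the 4. Its level was 496, 530, 511 and 514 TPM with DMSO and 338, 323, 296 and 301 TPM with DOX at 3 days. The 6-day levels were 588, 579, 597 and 543 TPM with DMSO and 248, 250, 244 and 293 TPM with DOX. Again the treatments did not overlap, in TPM or in CPM. For this gene the log2 fold change was -0.52 at 3 days (SE 0.07, adjusted p = 0.00178) and -1.09 at 6 days (SE 0.07, adjusted p = 8.99e-10), when the scaled count had fallen by 53.0%. *Krt19* was also the only member called beyond 1.2-fold between the DOX groups of 6 and 3 days (log2 fold change -0.47, SE 0.07, adjusted p = 0.0246). In this comparison, added to the plan, 3.94% of all genes were called. Without the threshold, edgeR also gave an adjusted p under 0.05 for *Krt7* (-0.40, adjusted p = 0.00016) and *Krt18* (-0.23, adjusted p = 0.0219).

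**Figure D2:**
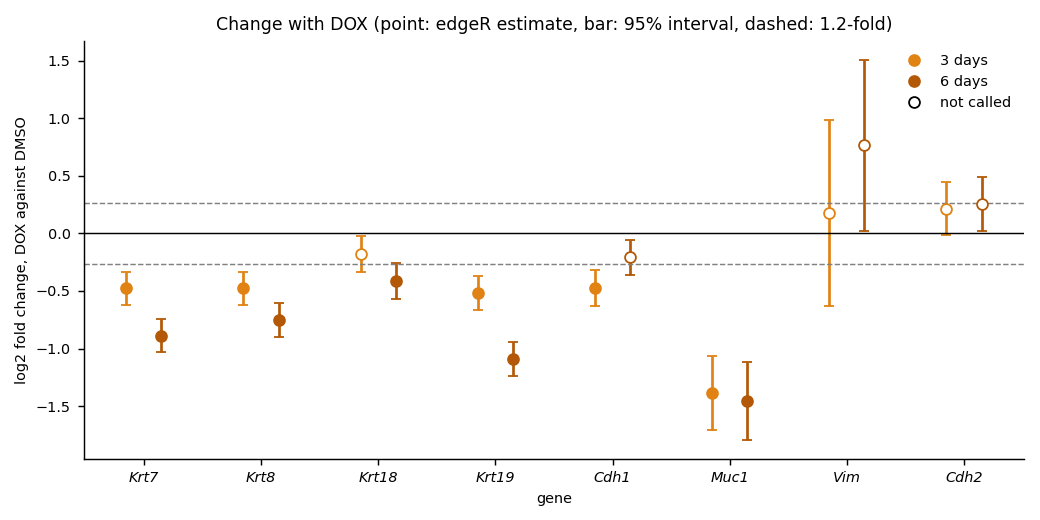
Log2 fold change of DOX against DMSO (vertical axis) for the 8 tested members at 3 days (light) and 6 days (dark), with 95% intervals. Filled points were called at an adjusted p under 0.05 beyond the dashed 1.2-fold lines, and the lowest points are those of *Muc1*, -1.39 at 3 days and -1.45 at 6 days.

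The keratins did not fall in proportion. Together the 4 genes summed to 2306 ± 75.1 TPM with DMSO and 1568 ± 108 with DOX at 3 days, and to 2486 ± 135 and 1467 ± 65.5 TPM at 6 days. The TPM ratio of *Krt8* to its partner *Krt18* was 0.70 ± 0.02 with DMSO and 0.57 ± 0.04 with DOX at 3 days, and 0.74 ± 0.03 and 0.59 ± 0.04 at 6 days. The ratio of the type I keratins *Krt19* and *Krt18* went from 0.59 ± 0.01 to 0.47 ± 0.01 at 3 days and from 0.63 ± 0.03 to 0.40 ± 0.03 at 6 days. In each of these ratios every DOX library lay below every DMSO library of the same time. The share of *Krt7* in the type II TPM differed less, at 34.4% ± 1.60 and 33.9% ± 0.43 at 3 days and 32.4% ± 1.28 and 30.3% ± 1.54 at 6 days.

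**Figure D3:**
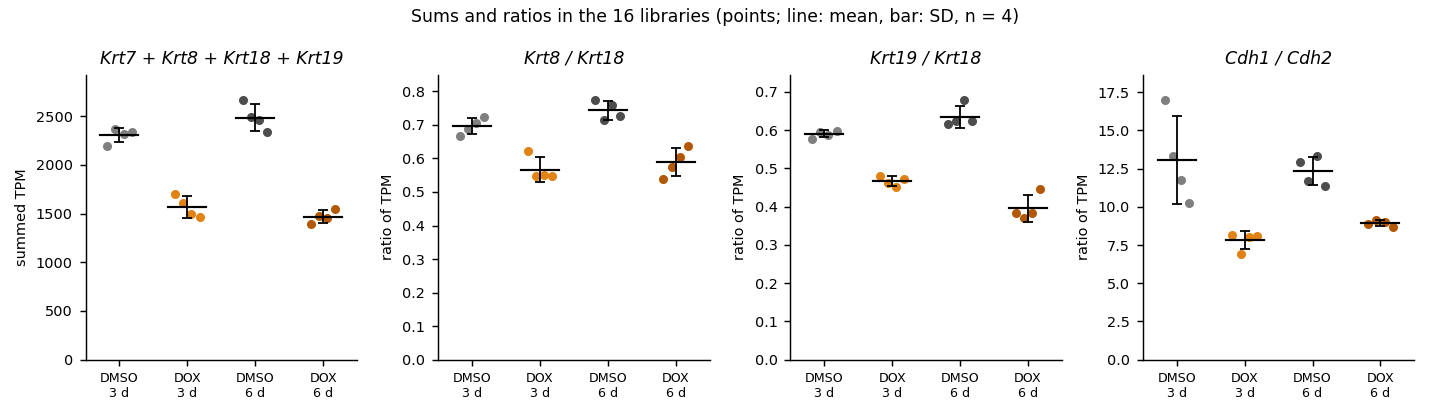
Summed TPM of the 4 keratins and the TPM ratios *Krt8*/*Krt18*, *Krt19*/*Krt18* and *Cdh1*/*Cdh2* (vertical axes, each from 0) in the 16 libraries, with a line at the mean of 4 replicates and a bar of 1 SD. In all 4 panels every DOX library lies below every DMSO library of the same time.

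After these values were seen, all protein-coding genes with a keratin symbol were counted, 53 in number, of which 12 passed the CPM limit, *Krt7*, *Krt8*, *Krt18* and *Krt19* among them. With DOX for 6 days 12 of the 12 were called lower, against 11.6% of all genes, and at 3 days 7 were lower, against 7.22%, and 0 higher. Of the 8 keratins besides those 4, all 8 were lower at 6 days and 4 at 3 days. *Krt5*, *Krt16* and *Krt25* reached 1 CPM in at least 4 DMSO libraries but in fewer than 4 DOX libraries, so they passed the limit through the libraries where they were high. Without them the 5 others, *Krt4*, *Krt10*, *Krt20*, *Krt79* and *Krt80*, were lower at 6 days and 3 of these 5 at 3 days. *Krt10*, a keratin of stratified epithelia, was not called at 3 days (log2 fold change 0.17, SE 0.11, adjusted p = 1) and lower at 6 days (-0.56, SE 0.11, adjusted p = 0.00913).

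**Figure D4:**
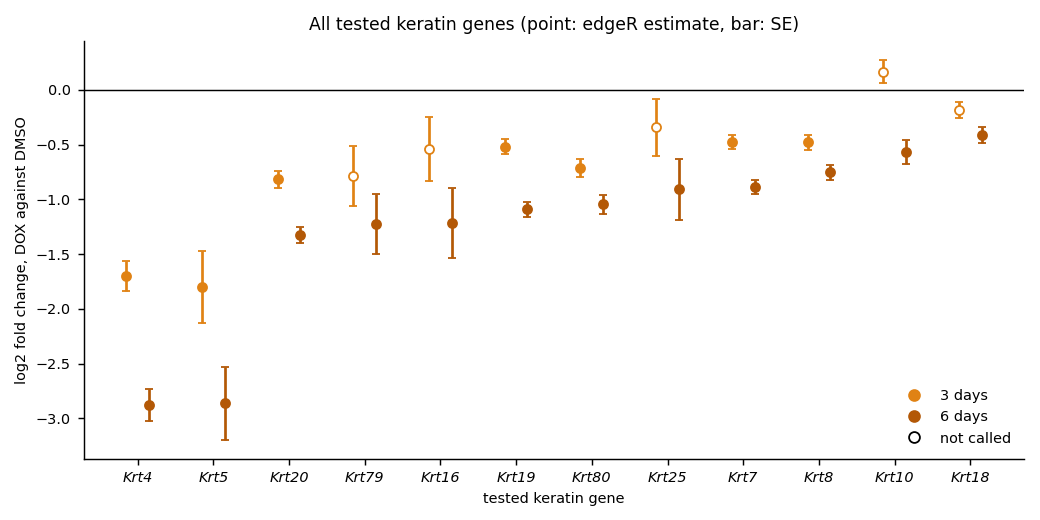
Log2 fold change of DOX against DMSO (vertical axis, bars of 1 SE) for the 12 keratin genes that passed the CPM limit, at 3 days (light) and 6 days (dark). Every dark point is filled, meaning called, and lies between -2.88 for *Krt4* and -0.41 for *Krt18*.

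*Cdh1* fell at 3 days and was not called at 6 days. Its level was 74.0, 77.2, 83.5 and 88.6 TPM with DMSO and 68.6, 45.5, 46.8 and 45.5 TPM with DOX at 3 days. Replicate 1 of DOX stood apart from the other 3 but still below every DMSO library. The log2 fold change was -0.47 (SE 0.07, adjusted p = 0.00883), and -0.57 without that replicate (adjusted p = 3.4e-05). DESeq2 gave a similar change, -0.47, that missed the limit (adjusted p = 0.0534). At 6 days *Cdh1* measured 76.2, 72.4, 80.3 and 78.6 TPM with DMSO and 53.3, 65.2, 65.9 and 72.5 TPM with DOX. In TPM 1 DOX library reached into the DMSO range. In CPM the DOX libraries all lay below the DMSO libraries, where 43.0% of all tested genes did not overlap in either direction. The log2 fold change was -0.21 (95% interval -0.36 to -0.05, edgeR adjusted p = 0.939 against the 1.2-fold threshold and 0.0182 without it).

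*Muc1* had the largest fold change of the 8 tested members. It stood at 6.80, 9.22, 8.78 and 9.72 TPM with DMSO and 3.99, 3.56, 2.13 and 3.24 TPM with DOX at 3 days. The 6-day levels were 7.18, 6.35, 7.10 and 6.13 TPM against 1.56, 2.42, 1.82 and 3.69 TPM. The groups were separate at both times in TPM and in CPM, on 61 to 349 counts per library. In log2 the fold change was -1.39 at 3 days (SE 0.15, adjusted p = 3.51e-06) and -1.45 at 6 days (SE 0.16, adjusted p = 9.76e-07), so that the scaled count had fallen by 61.7% and by 63.5%.

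*Vim*, which encodes the intermediate filament of mesenchymal cells, was low in every group. It had 14 to 94 counts per library, against at least 5373 for any of the 4 keratins. At 3 days it measured 0.863, 0.535, 1.25 and 2.41 TPM with DMSO and 0.756, 0.779, 0.521 and 1.15 TPM with DOX. At 6 days it measured 0.685, 1.98, 0.788 and 1.88 TPM with DMSO and 1.39, 1.60, 3.09 and 1.58 TPM with DOX. The treatments overlapped at both times. The log2 fold change was 0.18 at 3 days (95% interval -0.63 to 0.98, adjusted p = 1), a direction that turned to -0.27 on log2(TPM + 1) and to -0.00915 without replicate 4 of DOX. At 6 days it was 0.77 (95% interval 0.02 to 1.51, adjusted p = 0.186), which was not called. Without replicate 4 of DMSO, the highest of its group in CPM, the 6-day value became 1.23 (adjusted p = 0.0155), and without a CPM filter 0.81 (adjusted p = 0.0284). It became 0.48 without replicate 3 of DOX, the highest of its group, and 0.34 on log2(TPM + 1), and was called in neither.

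*Cdh2* was low in all groups, and the treatments overlapped at both times. Its level was 4.37, 5.80, 7.09 and 8.63 TPM with DMSO and 8.44, 6.58, 5.82 and 5.61 TPM with DOX at 3 days. The 6-day levels were 5.89, 6.18, 6.04 and 6.91 TPM with DMSO and 5.99, 7.15, 7.31 and 8.33 TPM with DOX. It differed by 0.21 in log2 (95% interval -0.02 to 0.45, adjusted p = 0.870) at 3 days and 0.26 (95% interval 0.03 to 0.49, adjusted p = 0.619) at 6 days. These p-values are against the 1.2-fold threshold, and without it edgeR called the 6-day rise (adjusted p = 0.0496). The ratio of E-cadherin to N-cadherin RNA, *Cdh1* over *Cdh2* in TPM, was 13.1 ± 2.87 with DMSO and 7.80 ± 0.59 with DOX at 3 days, and 12.3 ± 0.93 and 8.93 ± 0.18 at 6 days. *Cdh1* thus remained the more abundant of the cadherin pair in every library.

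The repressors *Zeb1* and *Snai2* were barely detected. *Zeb1* had 6 to 27 counts per library. At 6 days its CPM was 0.559, 0.459, 0.703 and 0.732 with DMSO and 1.104, 0.738, 1.18 and 1.32 with DOX. These groups did not overlap (exact two-sided permutation test over 70 arrangements, p = 0.0286, the smallest possible and not adjusted for the 8 such tests made). In TPM they did overlap, at 0.32 ± 0.09 and 0.31 ± 0.10. In the edgeR fit without a CPM filter, over 34114 genes, the log2 fold change was 0.85 (SE 0.34, adjusted p = 0.175). The overlapping *Gm10125* had 18 to 28 counts with DMSO and 9 to 22 with DOX at 6 days. At 3 days the CPM of *Zeb1* averaged 0.68 ± 0.30 with DMSO and 0.64 ± 0.12 with DOX (exact permutation p = 0.8).

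*Snai2*, which encodes the repressor Slug, was listed with 6 counts over all 16 libraries. It was at 0 in 11 of the libraries, the 4 with DOX for 6 days among them, and no library held more than 2. This is under the 3 counts of a library that were taken as detectable, so a difference between the groups was not detectable at this depth. The exact permutation p was 0.543 at 3 days and 1 at 6 days.

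Between the DMSO groups of 6 and 3 days 0 of the 8 tested members and 0% of all genes were called by edgeR, although 172 of all genes had an unadjusted p under 0.05. DESeq2 also called 0 genes. The members' log2 fold changes lay between -0.36 for *Muc1* (95% interval -0.66 to -0.06) and 0.30 for *Vim* (95% interval -0.50 to 1.10), and those of the 4 keratins between 0.00 and 0.10.

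The DOX effect itself differed between the times for 3 members. The difference, tested as an interaction with edgeR and no fold threshold, was called for 17.0% of all genes. It was -0.57 in log2 for *Krt19* (SE 0.10, adjusted p = 0.000878), -0.41 for *Krt7* (SE 0.09, adjusted p = 0.00578) and -0.27 for *Krt8* (SE 0.09, adjusted p = 0.0483), each a larger fall at 6 days. The call for *Krt8* was lost in 13 of the 16 fits that left out 1 library (adjusted p up to 0.104). *Krt18* had -0.23 (SE 0.10, adjusted p = 0.121) and *Muc1* -0.07 (95% interval -0.54 to 0.40, adjusted p = 0.868). *Cdh1* went the other way, with 0.27 (SE 0.10, adjusted p = 0.0666), and was called at 0.36 without replicate 1 of DOX at 3 days (adjusted p = 0.00125). With a 1.2-fold threshold the difference was called for *Krt19* alone of the 8 (adjusted p = 0.0366). On log2(TPM + 1) the difference held for *Krt19* (-0.45, adjusted p = 0.00558) and was not called for *Krt7* (-0.25, adjusted p = 0.274) or *Krt8* (-0.14, adjusted p = 0.393).

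Among other keratins and genes of the desmosome, the junction that anchors keratin filaments, every called gene was lower. Of 24 listed genes 18 were tested, with 8 lower and 0 higher at 3 days, then 9 lower and 0 higher at 6 days. Over all genes tested, 7.22% were called lower and 5.30% higher at 3 days, and 11.6% and 10.0% at 6 days, which are the shares beside which the counts of this list and the next 4 stand. *Krt5* and *Krt16*, basal and stress keratins at no more than 1.11 TPM in any library, passed the limit through their DMSO libraries, and without them 7 of 16 were lower at both times. The median log2 fold change was -0.46 and -0.43, against 0.00 for all genes at both times. *Krt20*, a keratin of differentiated epithelium, averaged 139 TPM with DMSO and 68.9 with DOX at 3 days and 150.03 and 57.4 TPM at 6 days, with log2 fold changes of -0.82 (SE 0.07, adjusted p = 1.57e-06) and then -1.32 (SE 0.07, adjusted p = 1.04e-10). *Krt4* went from 7.78 to 1.02 TPM at 6 days (log2 fold change -2.88, SE 0.15, adjusted p = 9.02e-12). Envoplakin (*Evpl*), which links keratins to the cornified envelope, was called at 3 days (log2 fold change -0.58, adjusted p = 0.00048) and not at 6 days (-0.33, adjusted p = 0.193), and the difference between the times was not called (adjusted p = 0.096). Desmoplakin (*Dsp*), the link between desmosome and filament, was named after its values were seen. It fell by 0.84 in log2 at 3 days (adjusted p = 3.15e-05) and by 0.75 at 6 days (adjusted p = 7.26e-05). *Pkp4* and *Ppl* were also lower at both times. Plakoglobin (*Jup*), *Pkp1*, *Pkp2*, *Pkp3* and the listed desmosomal cadherins were not called at either time. The other genes of this list called at 6 days were keratins, already counted in the keratin family above.

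Adherens junction genes were mostly lower or not called. Of 15 listed 12 were tested, with 4 lower and 0 higher at 3 days, then 5 lower and 1 higher at 6 days (median log2 fold change -0.31 and -0.17). The kidney cadherin *Cdh16* went from 94.5 to 46.1 TPM at 3 days and from 97.6 to 51.4 TPM at 6 days (log2 fold change -0.83 and -0.84, SE 0.08 each, adjusted p = 2.68e-06 and 7.46e-07). Vinculin (*Vcl*), which ties junctions to actin, fell by 0.64 and 0.74 in log2 (adjusted p = 0.000778 and 3.11e-05), and p120-catenin (*Ctnnd1*), which stabilises cadherins at the membrane, by 0.49 and 0.59 (adjusted p = 0.0165 and 0.000829). P-cadherin (*Cdh3*) moved the opposite way at 6 days, from 8.60 ± 0.18 to 12.7 ± 0.81 TPM (log2 fold change 0.62, SE 0.08, adjusted p = 0.000204). On log2(TPM + 1) fewer genes of this list were called in both directions at 6 days, with 0 higher and 3 lower.

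Genes of epithelial identity, among them claudins, surface proteins and epithelial transcription factors, were mostly not called beyond the 1.2-fold threshold. Of 32 listed 29 were tested, with 5 lower and 1 higher at 3 days, then 8 lower and 1 higher at 6 days (median log2 fold change -0.20 and -0.21). Other mucins were lower as well. *Muc4* went from 14.6 to 2.87 TPM and *Muc20* from 25.6 to 8.68 TPM at 6 days, with log2 fold changes of -2.21 (SE 0.12, adjusted p = 1.02e-10) and -1.51 (SE 0.11, adjusted p = 6.49e-09). The epithelial ETS factors *Ehf* and *Elf3* fell by 1.31 and 0.85 in log2 at 6 days (adjusted p = 9.64e-12 and 8.88e-09). Syndecan-1 (*Sdc1*), a heparan sulphate proteoglycan of epithelia, was called at 3 days (log2 fold change -0.55, adjusted p = 0.000362) and not at 6 days (-0.30, adjusted p = 0.303), with no called difference between the times (adjusted p = 0.0588). The 1 gene called higher, at both times, was the epithelial splicing regulator *Esrp1*, at 0.44 and 0.41 in log2 (adjusted p = 0.00509 and 0.00836), though not on log2(TPM + 1). On that scale the genes of this list called lower at 6 days also became fewer, at 5. *Epcam* was not called, at -0.10 and -0.23 (adjusted p = 1 and 0.890).

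Few of the other regulators of the transition were called. Of 18 listed 11 were tested, with 1 up and 1 down at 3 days, then 1 up and 2 down at 6 days (median log2 fold change 0.07 and 0.09), and 1 of 11 up is near the 10.0% of all genes called higher at 6 days. The gene called higher at both times was *Zeb2*, a relative of *Zeb1*, which had 97 to 157 counts per library with DMSO and 156 to 204 with DOX at 3 days, and 99 to 121 against 264 to 347 at 6 days. Its log2 fold change was 0.61 at 3 days (SE 0.09, adjusted p = 0.00176), reaching 1.28 at 6 days (SE 0.09, adjusted p = 3.19e-09). In TPM the means were 1.85 and 1.92 at 3 days and 2.02 and 4.13 at 6 days, and limma on log2(TPM + 1) called it at neither time. On that scale 1 gene of this list was called lower at 6 days. The forkhead factor *Foxc1* fell by 0.81 and 0.59 in log2 (adjusted p = 1.82e-05 and 0.00105), and the chromatin protein *Hmga2* by 0.64 at 6 days (adjusted p = 0.00311). *Snai1* was not tested, at a mean of 0.27 to 0.33 TPM in the 4 groups.

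Mesenchymal effectors moved in both directions. Of 42 listed 18 passed the CPM limit, with 1 up and 3 down at 3 days, then 5 up and 4 down at 6 days (median log2 fold change -0.17 and 0.01). *Ddr2*, a collagen receptor, passed the limit through its DOX libraries, and without it 0 of 17 were up at 3 days and 4 of 17 at 6 days. It had 5 to 13 counts per library with DMSO and 38 to 68 with DOX at 3 days, then 1 to 6 against 80 to 115 at 6 days, when it averaged 1.22 ± 0.58 TPM with DOX. On log2(TPM + 1) the list had 0 genes up and 1 down at 3 days, and 1 up at 6 days. The other 4 called higher at 6 days were fibronectin (*Fn1*, 0.48), *Ncam1* (0.70), the fibronectin receptor chain *Itga5* (0.68) and versican (*Vcan*, 0.65), named after their values were seen. In the other direction, *Tpm2*, a tropomyosin, fell by 1.81 (adjusted p = 1.78e-06), the intermediate filament gene *Nes* by 1.05 (adjusted p = 1.86e-07) and *S100a4* by 0.85 (adjusted p = 0.00115) at 6 days. Tenascin C (*Tnc*) was lower at 3 days (log2 fold change -0.97, adjusted p = 0.00325) and not called at 6 days (-0.03, adjusted p = 1), and these effects differed (adjusted p = 0.021). The log2 fold changes of 6-day against 3-day DMSO were -0.42 for *Fn1*, -0.35 for *Ncam1*, -0.23 for *Itga5* and -0.58 for *Vcan*. For *Tnc* this value was -0.70, and none of these was called. *Fn1* averaged 40.1 TPM with DMSO and 38.6 with DOX at 3 days, then 29.9 and 39.4 TPM at 6 days.

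**Figure D5:**
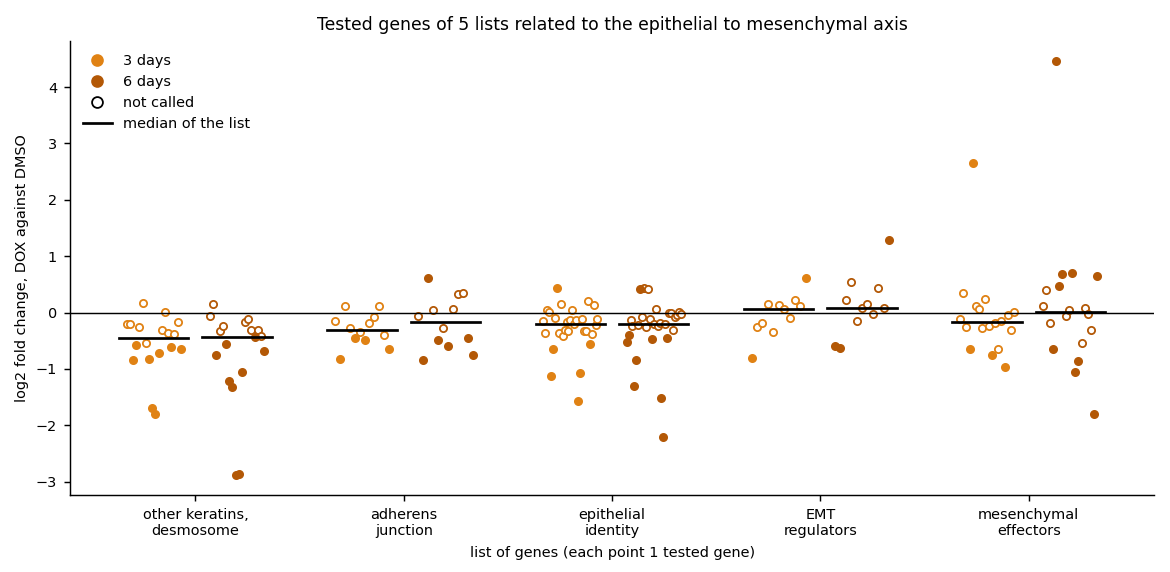
Log2 fold change of DOX against DMSO (vertical axis) of each tested gene in 5 lists at 3 days (light) and 6 days (dark), with filled points called and a bar at the median. No keratin or desmosome gene is called higher, and the highest point, at 4.45, is *Ddr2*, which passed the CPM limit through its DOX libraries.

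For *Vim* and *Muc1*, the members with the highest and the lowest log2 fold change at 6 days, the 3 tested genes most like them across the 16 libraries were taken by the Pearson correlation of log2 CPM. These correlations hold the differences between the 4 groups and carry no test. *Muc1* was most like *Rhof* (r = 0.978), *Irx3* (r = 0.974) and *Tmem79* (r = 0.972). Each of these was called lower at both times, with 6-day log2 fold changes of -0.91, -1.23 and -0.65. *Vim*, which was not called, was most like *Rbms3* (r = 0.821), *Prmt9* (r = 0.811) and *Slc19a2* (r = 0.809), none of them called at either time.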

How the data were processed

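The 16 libraries were paired-end and made from polyadenylated RNA by a strand-keeping protocol. Per the labels, the authors aligned reads to GRCm38.p6 with STAR 2.6.0c, and the submitters' processing notes name Salmon 0.14.10. The deposited estimated counts of 54393 genes are not normalized and hold fractions. The deposited TPM values of 53354 genes are the authors' own and divide by transcript length.

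Counts were rounded. The 13234 genes reaching 1 CPM in 4 or more libraries were scaled by TMM and fitted with robust quasi-likelihood and 1 mean per group in edgeR 4.0.16 (R 4.3.3). DOX was compared with DMSO by glmTreat at 1.2-fold, as in the study's methods, as were 6 with 3 days within a treatment, and the difference of the DOX effect between times was tested by glmQLFTest without a fold threshold, two-sided, with Benjamini-Hochberg adjustment at 0.05. The SE is the size of the log2 fold change over the square root of F. Genes under the CPM limit were compared by exact permutation of TMM-scaled CPM over 70 arrangements of 4 against 4, whose smallest p is 0.0286, and 2 genes in 4 comparisons were so tested, 8 tests in all.

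The members and gene lists were chosen with earlier results of these data known. From each list, up to 4 genes called at 6 days with the largest changes and up to 2 called at 3 days only were named. *Epcam*, *Krt10*, *Dsp*, *Jup*, *Pkp1*, *Pkp2*, *Pkp3*, *Pkp4*, *Ppl*, *Esrp1*, *Snai1*, *Fn1*, *Ncam1*, *Itga5* and *Vcan* were named after their values were seen. Near-copies were found by BLAST at 90% identity or more over 300 bases or more. The tests were checked on simulated counts. Alternatives were RLE scaling, DESeq2 1.42.0, limma 3.58.1 on log2(TPM + 1) and log2(TPM + 0.1), other CPM filters, no fold threshold, a fit without robust estimation, a fit to the 8 libraries of a comparison, a replicate block, leaving out each library, and, added after the data were seen, an offset for transcript length and GC content (splines with 5 degrees of freedom). Not every promoter window read is reported here.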

Additional observations from a re-analysis of the deposited data

Results flagged for a closer look

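In 55 groups of 4 libraries, a library stood apart from the other 3 of its group in 8, by Dixon's criterion on the gap to its nearest neighbour, which chance meets in about 1 group in 20. In TPM these were *Krt19* at 293 in DOX 6 days replicate 4, *Cdh1* at 68.6 in DOX 3 days replicate 1, *Vim* at 3.09 in DOX 6 days replicate 3, *Zeb1* at 0.859 in DMSO 3 days replicate 4 and *Snai2* at 0.032, a single count, in DMSO 6 days replicate 2. Among the TPM ratios they were *Krt8* to *Krt18* at 0.623 in DOX 3 days replicate 1, *Krt19* to *Krt18* at 0.677 in DMSO 6 days replicate 3 and *Cdh1* to *Cdh2* at 6.92 in DOX 3 days replicate 2. Without their libraries, the log2 fold change was -1.14 for *Krt19* at 6 days, -0.57 for *Cdh1* at 3 days and 0.48 for *Vim* at 6 days.

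The DOX effect differed between 6 and 3 days, by edgeR's interaction test at an adjusted p under 0.05, for 18 of the genes named. It was called for 17.0% of all genes. Many of the genes were named for their changes in these data, so the count is a listing and not a result about them. The difference in log2 was negative for 9 of them, *Krt7* (-0.41), *Krt8* (-0.27), *Krt19* (-0.57), *Krt4* (-1.18), *Krt20* (-0.51), *Krt10* (-0.73), *Muc4* (-1.14), *Tpm2* (-1.51) and *S100a4* (-0.67). It was positive for the other 9, *Cdh3* (0.51), *Zeb2* (0.67), *Ddr2* (1.79), *Tnc* (0.95), *Ncam1* (0.94), *Itga5* (0.61), *Itgb5* (0.54), *Col4a4* (0.42) and *Col4a5* (0.53).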

How the results depend on the processing

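At 3 days 5 members were called without any single library, 4 with DESeq2 and 6 without a fold threshold. At 6 days 4 to 6 were called without single libraries, 4 with DESeq2 and 7 without a threshold. Not all of these were falls. The 7 included *Cdh2*, called higher by edgeR (log2 fold change 0.26, adjusted p = 0.0496). The 6, without DMSO 6 days replicate 4, included *Vim*, also called higher (1.23, adjusted p = 0.0155). The 3 members whose DOX effect differed between times became 1 with a 1.2-fold threshold, 1 on log2(TPM + 1), and 2 to 5 without single libraries, with 5 lacking DOX 3 days replicate 1. The difference for *Krt8* was lost in 13 of the fits lacking 1 library (adjusted p up to 0.104). The 3-day change of *Vim* reversed to -0.27 on log2(TPM + 1), -0.46 on log2(TPM + 0.1) and -0.00915 without DOX 3 days replicate 4, and ran up to 0.36 without other libraries. The cause was not tested.

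Same-numbered libraries deviated together at r = -0.43 to 0.18 over genes. At either time, 0 of 4 DMSO libraries were closest to the DOX library of their own number. With 4 libraries per group, this check gave no sign of pairing but cannot exclude a shared culture or batch. With the replicate block, 5 members were called at each time, out of 1570 genes at 3 days and 2767 at 6 days, and the difference for *Krt8* was not called (-0.27, adjusted p = 0.0652).

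Over all genes, the 1658 called at 3 days became 5982 without a fold threshold, 1019 with DESeq2 and 701 on log2(TPM + 1). The 2856 at 6 days became 6702 without a threshold and 1307 on log2(TPM + 1). The 0 between DMSO groups became 62 without a threshold and 6 without a CPM filter. The 2252 for the difference became 183 with a threshold, 659 on log2(TPM + 1), 1369 without DMSO 3 days replicate 4, 1480 without DOX 3 days replicate 2, 1467 without DMSO 6 days replicate 2 and 3787 without DOX 3 days replicate 1. *Snai2*, with at most 2 counts in a library, lay under the floor of 3.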

Other observations

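Gene families, which share genes with the members and lists above, were counted after the data were seen, by gene symbol among protein-coding genes. Some calls are thus counted again here. Beside the families stand the shares of all genes called, 7.22% lower and 5.30% higher at 3 days and 11.6% and 10.0% at 6 days. Integrins, which bind cells to the basement membrane, had 17 of 27 genes tested, with 8 lower and 0 higher with DOX at 3 days and 4 lower and 2 higher at 6 days. Those lower at both times were *Itga1*, *Itga6*, *Itgav* and *Itgb6*, while *Itga5* and *Itgb5* were higher at 6 days (log2 fold changes of 0.68 and 0.52, edgeR adjusted p = 0.000414 and 0.0044). Claudins, the strands of the tight junction, had 8 of 33 tested, with 3 lower at 3 days and 5 lower and 1 higher at 6 days. The largest falls were those of *Cldn8*, from 5.32 to 0.88 TPM at 6 days (log2 fold change -2.53, adjusted p = 4.06e-10), and *Cldn2*, from 3.43 to 1.01 TPM (-1.49, adjusted p = 0.000112), and *Cldn12* rose by 0.47 (adjusted p = 0.00116).

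Collagens had 15 of 44 tested, with 2 lower and 0 higher at 3 days and 3 lower and 4 higher at 6 days. The 4 higher were *Col4a2*, *Col4a4* and *Col4a5* of the basement membrane and *Col20a1*. Among 8 of 23 cadherins tested, *Cdh1* and *Cdh2* included, 4 were lower at 3 days and 3 lower and 1 higher at 6 days. *Cdh13*, *Cdh16* and *Cdh17* were lower at both times.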
